A study of Homo sapiens with 6 samples.

Results

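The 7 genes of the platelet-derived growth factor (PDGF) family were described in Hs578T cells with and without knockdown of CCN3. They were the rows of the count table whose gene symbol was PDGFA, PDGFB, PDGFC, PDGFD, PDGFRA, PDGFRB or PDGFRL, 7 of 46427 genes. Of these, 5 had enough reads to be tested, and PDGFB and PDGFD did not. Hs578T cells are a mesenchymal-like line of triple-negative breast cancer. RNA-seq libraries came from 3 samples of a line that stably carries a control shRNA (shCTRL) and 3 samples of a line that stably carries CCN3 shRNA #2 (shCCN3). Both lines had been infected with a pSUPER retrovirus and selected, so that each group stands for 1 selected line and 1 shRNA sequence. The comparison asks how the mRNA of PDGF ligands and receptors differed when CCN3, a secreted matricellular protein, was knocked down.

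PDGF ligands are secreted dimers that drive growth and migration of mesenchymal cells such as fibroblasts, pericytes and smooth muscle cells. PDGF-A and PDGF-B are cut to their active form inside the cell, whereas PDGF-C and PDGF-D leave the cell with an inhibitory CUB domain that extracellular proteases remove. PDGFRα binds the A, B and C chains and PDGFRβ binds the B and D chains. Both are receptor tyrosine kinases that dimerize on ligand binding and recruit kinases, adaptors and STAT proteins to their phosphorylated tails. PDGFRL encodes a receptor-like protein with immunoglobulin domains and no kinase domain.

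With CCN3 knocked down, PDGFRA mRNA was 5.92-fold lower, PDGFA mRNA 1.95-fold lower and PDGFRL mRNA 1.79-fold lower than in control cells. PDGFRB and PDGFC did not pass the test, and the reads of PDGFB and PDGFD were close to 0. Of the 5 genes tested, 3 were lower and 0 were higher with an adjusted p under 0.05 in edgeR's quasi-likelihood test. Over all 17419 genes tested, 33.4% passed that test, 17.3% as lower and 16.2% as higher in shCCN3 cells. At least 2-fold lower and past the test was 1 of the 5 genes, PDGFRA, against 3.93% of all genes. The values of PDGFRA, PDGFA and PDGFRL did not overlap between the groups, which held for 46.3% of all genes tested. The members were not chosen at random, and these shares are descriptions.

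**Figure D1:**
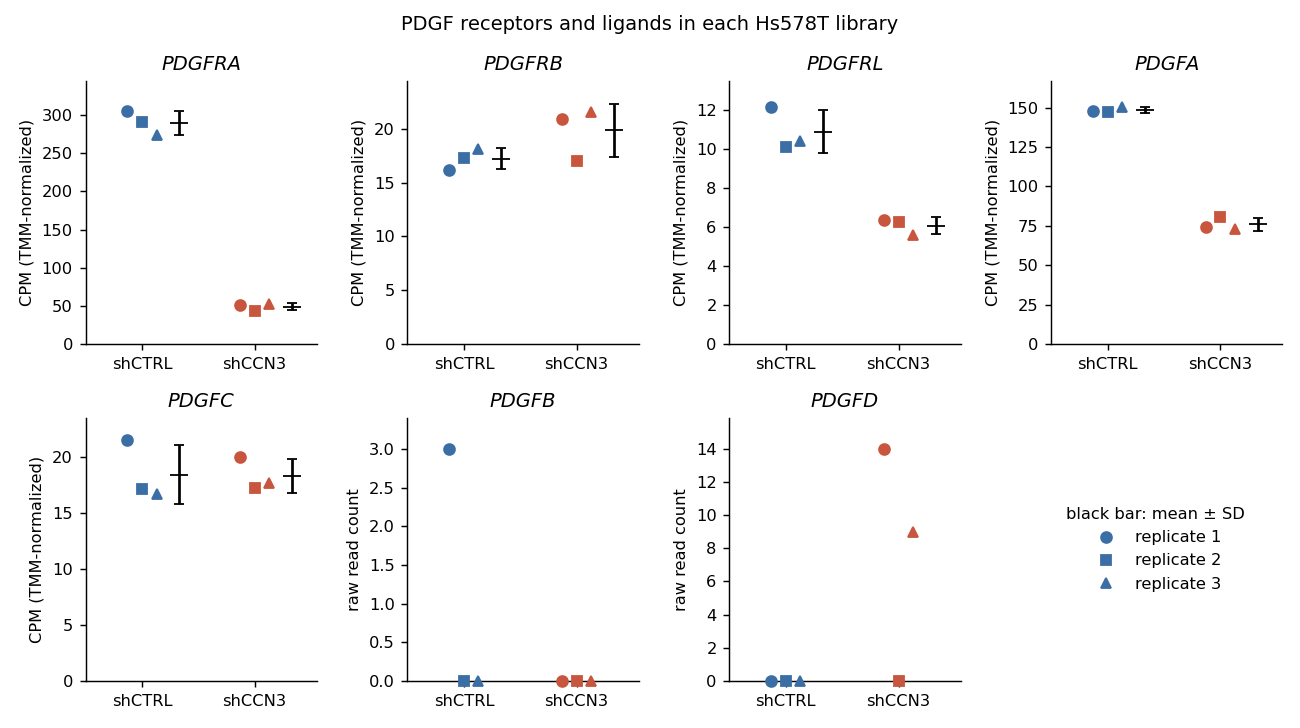
PDGF family mRNA in the 3 shCTRL and 3 shCCN3 libraries, as TMM-normalized CPM (counts per 1000000) for 5 genes and as raw read counts for PDGFB and PDGFD, with black bars for the mean ± SD. PDGFRA, PDGFRL and PDGFA lie apart between the groups, PDGFRB and PDGFC overlap, and no library held more than 14 reads of PDGFB or PDGFD.

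The libraries held between 56159110 and 68393177 counts, so that 3 reads of a gene amounted to 0.0435 to 0.0540 CPM. CPM stands for counts per 1000000 of the TMM-normalized library size. This limit covers counting error only. CCN3 mRNA itself was lower in every shCCN3 library, at 46.5 to 47.4 CPM against 98.1 to 103 CPM. The mesenchymal markers fixed for the cell line were all detected, led by VIM at 7421 CPM and FN1 at 2522 CPM over the 6 libraries. Their summed level was 13225 to 13358 CPM in shCTRL and 12536 to 12734 CPM in shCCN3 libraries. Of these 8 markers, CDH2 was higher by 0.87 and CD44 lower by 0.25 on the log2 scale, and 6 did not pass the test. Of 6 epithelial markers, 3 were tested, of which KRT8 and CLDN4 were lower and KRT18 was higher (33.4% of all genes tested passed). Their summed level was 174 to 193 CPM in shCTRL and 226 to 278 CPM in shCCN3 libraries, most of it from KRT18, while EPCAM was at 0.0075 CPM and CDH1 at 0.058 CPM. The endothelial markers summed to 3.11 to 4.58 CPM and 3.27 to 3.78 CPM, and the leukocyte markers to less than 1 CPM in every library. PECAM1, which made up most of the endothelial sum, was at 3.50 CPM and the leukocyte gene CD14 at 0.488 CPM over the 6 libraries. The endothelial gene CDH5 and the leukocyte gene CD3E were at 0 in every library. Of the receptors that define triple-negative cells by their absence, ESR1 was at 0.0453 CPM, PGR at 3.33 CPM and ERBB2 at 78.1 CPM. In RNA of whole cultures, fewer cells that express a gene and less of its RNA per cell cannot be told apart.

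PDGFRA (Gene ID 5156) encodes the receptor PDGFRα and lies at chr4:54229293-54298245 of GRCh38. It was counted 20961, 18299 and 18359 times in the shCTRL libraries and 3528, 2425 and 3329 times in the shCCN3 libraries. This corresponds to 305, 291 and 274 CPM in shCTRL cells and to 51.2, 43.6 and 52.0 CPM in shCCN3 cells. The lowest shCTRL library thus lay far above the highest shCCN3 library. The means were 290 ± 15.8 CPM and 49.0 ± 4.63 CPM (SD, n = 3 each), so that the shCCN3 level was 16.9% of the shCTRL level. PDGFRA fell by 2.57 on the log2 scale (standard error 0.084, 95% interval -2.75 to -2.38, adjusted p = 9.44e-08, edgeR). With each library left out in turn it lay between -2.61 and -2.49. An exact two-sided permutation test of the 6 libraries gave p = 0.1 for PDGFRA, the smallest value that 3 libraries against 3 can give. Of the 17419 genes tested, 133 had a lower log2 fold change than PDGFRA. Among the 13633 of these with a mean of at least 1 CPM, 41 did.

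The promoter sequences of the 2 receptors are shown because PDGFRA fell and PDGFRB did not pass the test. RefSeq sequences of GRCh38.p14 held an entry for 4 of the 7 genes. Stretches that GENCODE release 29 annotates as exon were left out, so the PDGFRA sequence is the whole 250 bases before a start inside the gene, at chr4:54233710-54233959 on the plus strand. The PDGFRB sequence is 223 bases at chr5:150155873-150156095 on the minus strand. Capitals mark GGGCGG or its complement CCGCCC, the core of a GC box, and CCAAT, which were searched on both strands together with TATAAA.
PDGFRA: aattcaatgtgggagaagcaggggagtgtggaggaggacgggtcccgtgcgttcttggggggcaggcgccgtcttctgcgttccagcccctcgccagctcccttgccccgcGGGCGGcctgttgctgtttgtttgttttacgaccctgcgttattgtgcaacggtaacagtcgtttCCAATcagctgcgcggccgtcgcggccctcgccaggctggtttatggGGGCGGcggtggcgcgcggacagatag
PDGFRB: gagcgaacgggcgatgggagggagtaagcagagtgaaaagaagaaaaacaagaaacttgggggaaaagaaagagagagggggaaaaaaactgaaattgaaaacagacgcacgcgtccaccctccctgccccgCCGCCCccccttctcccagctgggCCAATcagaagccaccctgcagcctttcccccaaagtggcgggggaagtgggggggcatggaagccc
The PDGFRA window held GGGCGG 139 and 27 bases before the start and CCAAT 74 bases before it. The PDGFRB window held 1 GGGCGG on the opposite strand, 118 bases before the start, and CCAAT 94 bases before it. Both motifs were thus present in both receptors' windows. Over 35116 promoter windows of 250 bases, 42.6% held GGGCGG and 32.0% held CCAAT. Neither window held TATAAA, which 10.7% of all windows held. The GC content was 64.0% for this PDGFRA window and 58.4% for the 250-base PDGFRB window, against a median of 58.0%. The window before the outermost start of PDGFRA, at chr4:54229043-54229292, held none of the motifs and had a GC content of 46.8%. Which start the reads came from was not tested, since the table counts reads per gene.

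PDGFRB (Gene ID 5159) encodes PDGFRβ and lies at chr5:150113839-150155845. The shCTRL libraries held 16.2, 17.3 and 18.1 CPM and the shCCN3 libraries 20.9, 17.0 and 21.6 CPM. Replicate 2 of shCCN3 was the lowest shCCN3 library and lay within the shCTRL range, so the groups overlapped. On the log2 scale, PDGFRB differed by 0.21 (standard error 0.101, adjusted p = 0.155, edgeR), with a 95% interval from -0.02 to 0.43. Without shCCN3 replicate 2, the log2 fold change was 0.31 and the adjusted p was 0.00983 in edgeR, so this library decided the call. Leaving it out also raised the genes that passed over all genes from 5825 to 7229. The exact permutation p of PDGFRB was 0.3.

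The balance between the 2 receptors was compared within each library, which removes the library scaling. The log2 ratio of PDGFRB to PDGFRA counts was -4.23, -4.07 and -3.91 in the shCTRL libraries and -1.29, -1.36 and -1.27 in the shCCN3 libraries. Every shCCN3 library thus had a higher ratio than every shCTRL library. The mean ratio differed by 2.77 on the log2 scale, or 6.81-fold (exact permutation p = 0.1, n = 3 each). Per kb of exon, where levels of different genes can be compared, PDGFRA was 36.8 ± 2.01 CPM per kb and PDGFRB 3.01 ± 0.170 CPM per kb in shCTRL cells (SD, n = 3). In shCCN3 cells the levels were 6.22 ± 0.588 and 3.47 ± 0.431 CPM per kb. PDGFRA remained the more abundant receptor mRNA in every library. Its share of the sum of both receptors was 93.2, 92.4 and 91.6% in the shCTRL libraries and 64.0, 65.1 and 63.6% in the shCCN3 libraries. The sum of both receptors was 39.9 ± 1.84 CPM per kb in shCTRL and 9.69 ± 1.02 CPM per kb in shCCN3 cells.

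**Figure D2:**
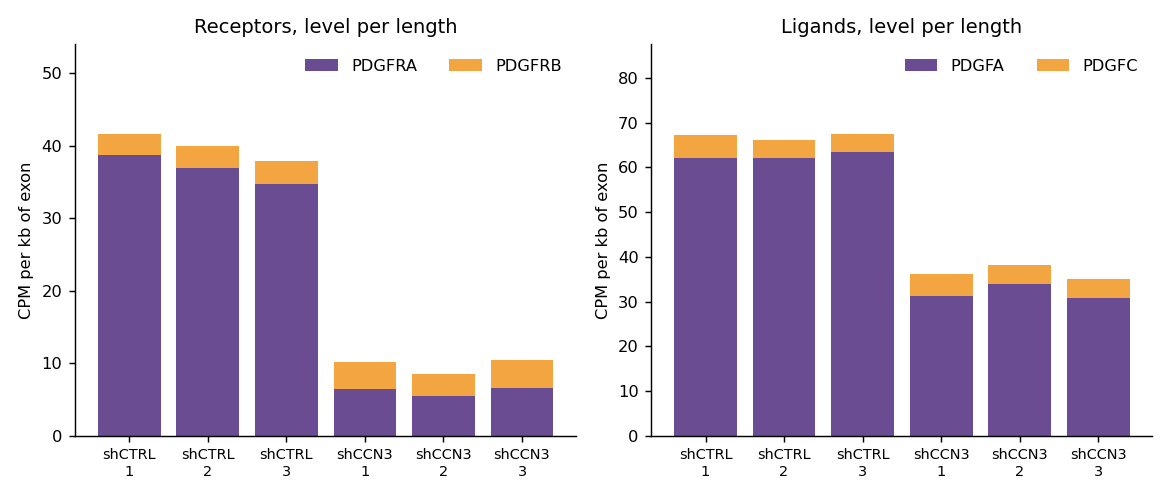
Level of the receptor mRNAs (left) and of the detected ligand mRNAs (right) in each library, in CPM per kb of exon, stacked. PDGFRA made up 91.6 to 93.2% of the receptor bars in shCTRL and 63.6 to 65.1% in shCCN3 libraries, and PDGFA made up most of every ligand bar.

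Markers of pericytes and smooth muscle, cells in which PDGFRβ is prominent, were measured beside the receptors. Of 7 markers, 4 were tested, of which 2 were lower and 2 did not pass the test. Over all genes tested, 33.4% passed, 17.3% as lower. The markers summed to 258 to 272 CPM in shCTRL and 142 to 164 CPM in shCCN3 libraries, most of it from CSPG4. CSPG4, which encodes the proteoglycan NG2, fell from 228 ± 6.20 to 140 ± 10.2 CPM, and NOTCH3 fell from 28.6 ± 2.34 to 7.91 ± 0.381 CPM (SD, n = 3 each). RGS5 was at 5.49 ± 0.456 and 5.25 ± 0.336 CPM, and MYH11, DES and KCNJ8 were below 0.1 CPM over the 6 libraries. The part of these genes in the values of the PDGF receptors was not tested.

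PDGFRL (Gene ID 5157), the receptor-like gene, lies at chr8:17576433-17643144. It was at 12.2, 10.1 and 10.4 CPM in shCTRL and at 6.37, 6.30 and 5.61 CPM in shCCN3 libraries. All 3 shCCN3 libraries were below all 3 shCTRL libraries. PDGFRL fell by 0.84 on the log2 scale (standard error 0.106, 95% interval -1.08 to -0.60, adjusted p = 0.000301, edgeR). With single libraries left out, its log2 fold change lay between -0.89 and -0.75. The mean was 10.9 ± 1.11 CPM in shCTRL and 6.09 ± 0.418 CPM in knockdown cells (SD, n = 3 each).

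Among the ligands, PDGFA (Gene ID 5154), which encodes the A chain, was the most abundant per length in every library. It lies at chr7:497258-520700. The shCTRL libraries held 148, 147 and 151 CPM and the shCCN3 libraries 74.3, 80.8 and 73.2 CPM. The groups lay well apart, with little spread within each, at 148 ± 1.79 CPM and 76.1 ± 4.06 CPM (SD, n = 3 each). PDGFA fell by 0.96 on the log2 scale (standard error 0.060, 95% interval -1.10 to -0.83, adjusted p = 4.37e-06, edgeR), and by 0.94 to 1.01 with single libraries left out.

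PDGFA has several annotated starts, and 1 of its promoter stretches is shown because its GC boxes lie end to end. It is 113 bases at chr7:519847-519959 on the minus strand, directly before a start, and capitals mark GGGCGG.
PDGFA: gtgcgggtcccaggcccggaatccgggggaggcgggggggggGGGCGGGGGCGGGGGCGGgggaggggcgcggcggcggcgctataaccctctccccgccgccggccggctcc
The 3 copies of GGGCGG begin 71, 65 and 59 bases before that start, in a 250-base window with a GC content of 81.6%. Neither CCAAT nor TATAAA was found in that window. A match is a description of the letters and no evidence of binding.

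PDGFC (Gene ID 56034), the ligand activated outside the cell, lies at chr4:156760454-156971799. It was at 21.5, 17.2 and 16.6 CPM in shCTRL and at 20.0, 17.2 and 17.7 CPM in shCCN3 libraries. Replicate 1 was the highest library of each group, and the groups overlapped. The means were 18.4 ± 2.65 CPM and 18.3 ± 1.48 CPM (SD, n = 3 each). On the log2 scale, PDGFC differed by -0.01 (standard error 0.111, adjusted p = 0.957, edgeR), with a 95% interval from -0.26 to 0.24. The sign of this value changed with the scaling and with the libraries included, so no direction is given.

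PDGFB (Gene ID 5155, chr22:39223359-39244982), which encodes the B chain, had 3 reads in shCTRL replicate 1 and 0 in the other 5 libraries. PDGFD (Gene ID 80310, chr11:103907189-104164147), the ligand of PDGFRβ that is activated outside the cell, had 0 reads in the shCTRL libraries. In shCCN3 libraries it had 14, 0 and 9 reads. PDGFD thus had reads in 2 of 3 shCCN3 libraries and overlapped with shCTRL at 0. When all genes with any reads were fitted without a filter, the adjusted p over 26429 genes was 0.0787 for PDGFD and 0.41 for PDGFB in edgeR. Neither gene passed that test, with 0 reads of PDGFD in shCCN3 replicate 2 and 3 reads of PDGFB in all, and no fold change is given.

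The balance between the detected ligands was compared in the same way. The log2 ratio of PDGFC to PDGFA counts was -2.78, -3.10 and -3.18 in shCTRL and -1.90, -2.23 and -2.05 in shCCN3 libraries. The groups did not overlap, and the mean ratio differed by 0.96 on the log2 scale, or 1.95-fold (exact permutation p = 0.1, n = 3 each). PDGFA accounted for 93.4 ± 0.930% of the summed ligand level per kb in shCTRL and 87.9 ± 1.29% in shCCN3 cells (SD, n = 3 each). That sum was 67.0 ± 0.718 CPM per kb in shCTRL and 36.5 ± 1.53 CPM per kb in shCCN3 cells.

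Ordered by level per kb of exon, the shCTRL cells had PDGFA at 62.5 ± 0.752, PDGFRA at 36.8 ± 2.01, PDGFRL at 5.73 ± 0.582, PDGFC at 4.42 ± 0.636 and PDGFRB at 3.01 ± 0.170 CPM per kb (SD, n = 3). The libraries of neighbours in this order did not overlap. In shCCN3 cells the order was PDGFA at 32.1 ± 1.71, PDGFRA at 6.22 ± 0.588, PDGFC at 4.39 ± 0.355, PDGFRB at 3.47 ± 0.431 and PDGFRL at 3.20 ± 0.219 CPM per kb. There, the ranges of PDGFRB and PDGFRL overlapped, so their order is not distinguished.

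**Figure D3:**
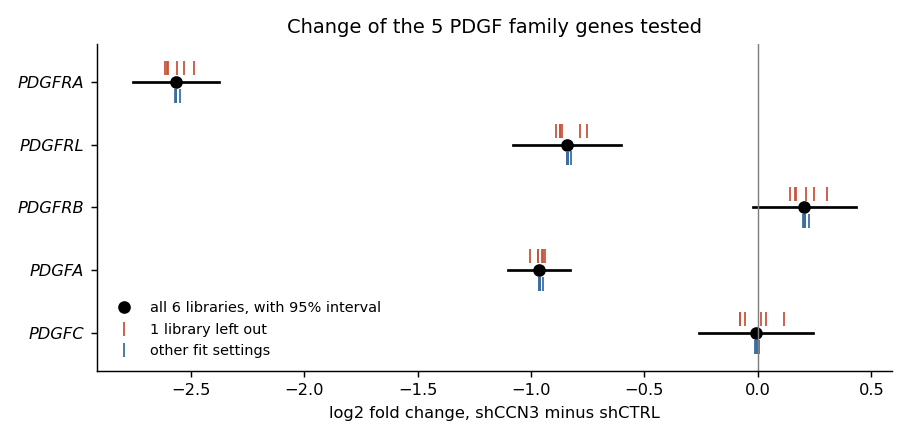
Log2 fold change (shCCN3 minus shCTRL) of the 5 tested genes, with the 95% interval as a black bar, values with 1 library left out in red and values under other fit settings in blue. PDGFRA, PDGFRL and PDGFA lie below 0 in all of them, and PDGFC lies on both sides of 0. The fitted values of PDGFRB lie between 0.14 and 0.31, while its 95% interval runs from -0.02 to 0.43 and includes 0.

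PDGFA lies near the end of chromosome 7, whose 821 tested genes were lower as a whole (median log2 fold change -0.43). The 24 tested genes nearest to PDGFA had a median of -0.57 and ranged from -2.40 to 1.32, with 16 lower and 1 higher past the test. PDGFA was 0.54 below the median of its chromosome and 0.39 below that of its neighbours on the log2 scale. Of the genes tested on chromosome 7, 94 (11.4%) had a lower log2 fold change. The fall of PDGFA was thus within the range of its surroundings, and the part of the chromosome in it was not tested. The neighbour FAM20C, which encodes a secretory-pathway kinase, fell from 1636 ± 64.6 to 719 ± 21.7 CPM (SD, n = 3 each), and PRKAR1B, a regulatory subunit of protein kinase A, had a log2 fold change of -2.14. The antisense gene HRAT92 overlaps PDGFA by 310 bases and had 283, 283 and 319 reads in shCTRL and 165, 119 and 189 reads in shCCN3 libraries. Whether reads were counted by strand is not given in the sources used here, so reads in the shared bases cannot be told apart.

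The genes around PDGFRA were centred near 0. The median log2 fold change of the 616 tested genes of chromosome 4 was 0.05, and the 24 genes nearest to PDGFRA had a median of 0.04 and a range from -1.21 to 0.75. PDGFRA was 2.61 below that median on the log2 scale, and 1 gene tested on chromosome 4 had a lower log2 fold change. Of its neighbours, 2 were lower and 1 was higher past the test. SCFD2, at chr4:52872982-53366061 before PDGFRA, fell from 35.7 ± 1.17 to 15.4 ± 0.370 CPM (SD, n = 3 each, adjusted p = 2.14e-06 in edgeR). FIP1L1, a subunit of the polyadenylation machinery that starts 852 kb before PDGFRA, fell by 0.50 on the log2 scale (standard error 0.069, adjusted p = 0.000567 in edgeR). KIT and KDR, the related receptor genes on the other side of PDGFRA, were low. KIT was at 0.0266 CPM over the 6 libraries and was not tested, and KDR was at 0.926 ± 0.124 CPM in shCTRL and 0.532 ± 0.180 CPM in knockdown cells (SD, n = 3 each; adjusted p = 0.0609 in edgeR). For PDGFRB, PDGFRL and PDGFC, the nearest 24 genes had median log2 fold changes of 0.04, -0.16 and 0.02.

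The genes that process or bind PDGF ligands were next described, of which 7 of 11 were tested. Of these, 5 were lower, 1 was higher and 1 did not pass, with a median log2 fold change of -0.48 against 0.0076 over all genes. The share past the test was 85.7%, against 33.4% of all genes tested (17.3% lower). Without shCTRL replicate 2, 4 of the 7 passed in place of 6, and over all genes 4181 passed in place of 5825. PLAU, which encodes urokinase, a protease that activates PDGF-D, had a log2 fold change of -1.22, from 1166 ± 20.1 to 501 ± 19.2 CPM (SD, n = 3 each). PLAT, which encodes the tissue plasminogen activator that removes the CUB domain of PDGF-C, was at 581, 601 and 591 CPM in shCTRL and at 431, 417 and 425 CPM in shCCN3 libraries. The groups of PLAT did not overlap (log2 fold change -0.48, standard error 0.051, adjusted p = 0.000114 in edgeR). FURIN, a convertase that cuts the PDGF-A and PDGF-B precursors, was higher by 0.20 on the log2 scale (adjusted p = 0.0302 in edgeR). The co-receptor genes NRP1 and LRP1 had log2 fold changes of -0.64 and -0.59, and the convertase gene PCSK7 one of -0.38. SPARC, which encodes an extracellular protein that binds PDGF-B, was at 800 ± 7.04 and 777 ± 10.7 CPM (adjusted p = 0.56 in edgeR, n = 3 each). The convertase genes PCSK5 and PCSK6 and the PDGF-binding A2M had 0 reads, and ST14, which encodes matriptase, was at 0.0212 CPM.

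The 25 genes of the signalling machinery below the receptors were all tested. Of these, 1 was lower, 8 were higher and 16 did not pass, and the median log2 fold change was 0.20. STAT5A, a transcription factor recruited by the receptors, rose from 4.28 ± 0.454 to 10.6 ± 0.248 CPM (SD, n = 3 each; log2 fold change 1.31, adjusted p = 1.94e-05 in edgeR). The adaptor gene GAB1 rose by 0.73 on the log2 scale. SRC, STAT5B, PIK3R2 and NCK2 were higher by 0.26 to 0.43. FYN, a Src-family kinase, was the 1 lower gene, at 91.5 ± 2.08 and 77.8 ± 1.66 CPM (log2 fold change -0.23, SD, n = 3 each). Without shCCN3 replicate 2, 16 of the 25 genes passed in place of 9, and over all genes 7229 passed in place of 5825. The share of 36.0% past the test was close to the 33.4% of all genes. By direction, 8 of the 25 were higher and 1 was lower, beside 16.2% higher and 17.3% lower over all genes.

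Of 11 genes that attenuate receptor signalling, 1 was lower, 3 were higher and 7 did not pass, with a median log2 fold change of 0.03. The share past the test, 36.4%, was close to the 33.4% of all genes. RASA1, which encodes a GTPase-activating protein of RAS that docks on PDGFRβ, was higher by 0.59. The receptor phosphatase gene PTPRJ was higher by 0.36 and the phosphatase gene PTPN2 by 0.28. GRB10, an adaptor that lowers receptor signalling and lies on chromosome 7, had a log2 fold change of -0.40, close to the -0.43 of that chromosome's median.

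The related VEGF ligands share the growth factor fold of the PDGFs, and the list of this branch also holds their receptor and co-receptor genes. Of the list's 7 tested genes out of 10, 3 were lower, 2 were higher and 2 did not pass, with a median log2 fold change of -0.45. This is 71.4% past the test, beside 33.4% of all genes (17.3% lower, 16.2% higher). VEGFA, the main angiogenic ligand, rose from 294 ± 8.42 to 391 ± 25.9 CPM (SD, n = 3 each; adjusted p = 0.00111 in edgeR), whereas VEGFB fell from 106 ± 6.75 to 77.2 ± 6.63 CPM (adjusted p = 0.0021). VEGFC was higher by 0.20, and PGF did not pass the test (log2 fold change 0.14, adjusted p = 0.304 in edgeR). The co-receptor gene NRP2 had a log2 fold change of -0.75 and NRP1, which is also in the list of PDGF-binding genes, one of -0.64. The VEGF ligands thus moved in both directions.

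The receptors KIT, CSF1R and FLT3 are the closest kin of the PDGF receptors. Of these and their ligands, 5 of 7 genes were tested, with 3 lower, 1 higher and 1 that did not pass, and a median log2 fold change of -0.39. That is 4 of 5 past the test, beside 33.4% of all genes. CSF1R lies at chr5:150053295-150113365, beside PDGFRB at chr5:150113839-150155845. CSF1R was at 0.247, 0.446 and 0.522 CPM in shCTRL and between 1.93 and 2.21 CPM in shCCN3 libraries. It was thus higher in every shCCN3 library, though at a low level (log2 fold change 2.33, standard error 0.265, adjusted p = 0.000161 in edgeR). Its ligand gene CSF1 fell from 257 ± 5.92 to 215 ± 8.56 CPM, and IL34, its other ligand gene, was below 0.4 CPM in every library. The median of this list is the value of IL34 itself, with 0 to 21 reads per library and a standard error of 1.31, so no shift is read from it. KITLG, the ligand gene of KIT, had a log2 fold change of -1.17 and FLT3LG, that of FLT3, one of -0.58. FLT3 had 0 reads.

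**Figure D4:**
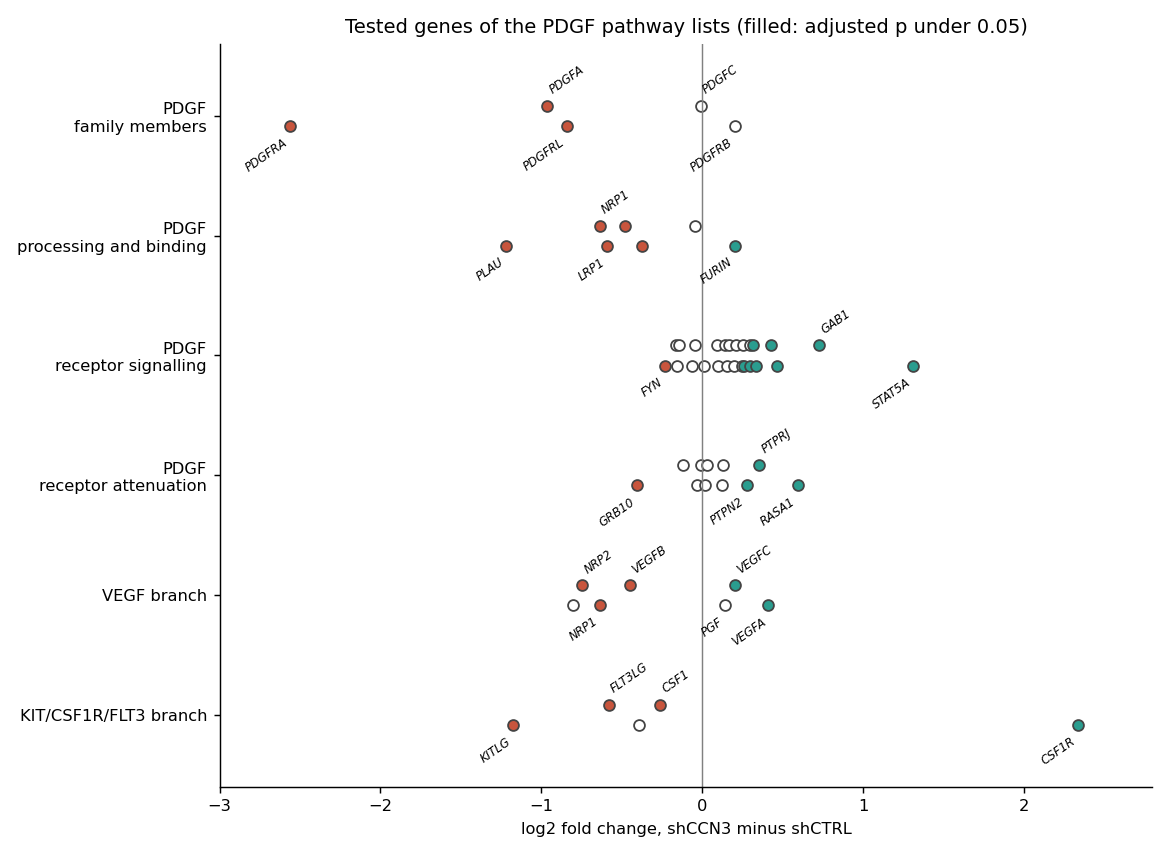
Log2 fold change (shCCN3 minus shCTRL) of each tested gene of the PDGF family and of the 5 related gene lists, with filled points for an adjusted p under 0.05, red when lower and green when higher. PDGFRA is the lowest gene shown and CSF1R the highest, and the signalling list lies mostly at or above 0.

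The genes most like each member were found from their log2 CPM over the 6 libraries, with each gene's mean subtracted, as the smallest Euclidean distance among 13633 genes. For PDGFRA this was the transcription factor gene FOXQ1 on chromosome 6 (distance 0.213), with a log2 fold change of -2.52. PDGFA was nearest to WLS (0.0901), which encodes the carrier of Wnt proteins, and to CDIP1 (0.0903). PDGFRL was nearest to ID2 (0.158) and GSR (0.172), PDGFRB to KMT2B (0.0578) and ZNF331 (0.0646), and PDGFC to ERG (0.0931) and NSUN3 (0.121). The distance is a description of 6 libraries of 2 groups.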

How the data were processed

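Poly(A) RNA of Hs578T cells was sequenced from stranded libraries, 3 of shCTRL and 3 of shCCN3 cells. The authors deposited raw read counts per gene for 46427 genes, without normalization. The submitters' processing notes name bcl2fastq 2.20.0, Trimmomatic, HISAT2 2.1.0, StringTie 2.1.3d, DESeq2 and GRCh38. The roles of these tools, the annotation and the strand setting are not given in the sources used here. Overlapping and antisense genes are therefore uncertain. Groups followed the column names and sample labels. The series describes the replicates as independent, without saying what was repeated, so p-values measure the spread between these samples.

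The counts were then analysed in R 4.3.3 with edgeR 4.0.16, which gave CPM and fold changes (TMM, the filter on low counts by group, quasi-likelihood test, Benjamini-Hochberg adjustment over 17419 genes). Single values were compared by exact permutation. No library of a group was a copy of another by its counts (chi-square per degree of freedom 7.13 to 46.0). The highest values, 37.6 and 46.0, were those of shCCN3 replicate 2 against the other shCCN3 libraries. Positions came from RefSeq (44698 Gene IDs matched) and exon lengths from GENCODE release 29 (26551 matched). Ratios used 0.5 added counts. Scripts were tested on simulated data. The alternatives were other scalings, filters, DESeq2 1.42.0, limma-voom (limma 3.58.1), a replicate block and each library left out. Repeating the comparison of PDGFA with its chromosome and of PDGFRA with its neighbours under these alternatives was added after seeing the data.

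Named genes were the members, CCN3, in each pathway list the up to 3 genes with the largest significant change in each direction at 1 CPM or more, all such VEGF and KIT branch genes, and the 2 nearest profiles per member. Others, such as PLAT, SPARC and the neighbours, were named after their values were seen. The values of some genes of these lists and rules are not reported here. The members and lists were chosen with earlier results of these data known.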

Additional observations from a re-analysis of the deposited data

How the results depend on the processing

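PDGFRA, PDGFA and PDGFRL kept their direction and an adjusted p under 0.05 in all 14 alternatives, with log2 fold changes from -2.61 to -2.49, from -1.01 to -0.94 and from -0.89 to -0.75. The log2 fold change of PDGFC lay between -0.078 and 0.11 with single libraries left out and was 0.0066 with library totals alone, never past the threshold. That of PDGFRB lay between 0.14 and 0.31, past the threshold without shCCN3 replicate 2 alone. The count of signalling genes past the threshold ranged from 6 to 16 with libraries left out, and the cause was not tested. PDGFRA lay 2.61 below the median of its 24 nearest genes, which moved to -2.46 without a filter on low counts and to -2.50 without shCTRL replicate 1. Over all genes, 4181 to 7229 passed, the most without shCCN3 replicate 2 and the fewest without shCTRL replicate 2. The other lists held their counts within 1.5 times. The replicate numbers are shared by the groups, but same-numbered libraries deviated from their group means with correlations of 0.15, -0.07 and -0.26, and not every library correlated best with its own number. With the replicate block, 4887 genes and 3 members passed, and the log2 fold changes of PDGFRA and PDGFA were -2.57 and -0.97. With 3 libraries per group and 1 line each, effects of a single shRNA or of line selection cannot be told apart from those of CCN3. PDGFB and PDGFD did not pass the filter on low counts. They were compared only in the fit without that filter, where neither passed the threshold.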

Other observations

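Among 58 receptor tyrosine kinase genes, a list written after the data were seen, 26 were tested with a mean of at least 1 CPM. Of these, 8 were lower, 9 were higher and 9 did not pass the test, with a median log2 fold change of 0.09. Over all genes tested, at any level, 17.3% were lower and 16.2% were higher. PDGFRA had the lowest log2 fold change of the 26, followed by the ephrin receptor genes EPHB6 at -1.56 and EPHB3 at -1.18 and by EGFR at -0.85. The highest were CSF1R at 2.33 (standard error 0.265) and EPHB1 at 2.30 (standard error 0.194), so their order is not distinguished. CSF1R averaged 0.405 CPM in shCTRL and 2.04 CPM in shCCN3 cells, and met the limit of 1 CPM through its shCCN3 level alone. In this list PDGFRA was thus the lowest, and the rank of its relative CSF1R depends on that limit. Except for PDGFRA, the lower kinase genes were not set against the median of their chromosome, which was -0.43 for chromosome 7. The part of the chromosome in these values, EGFR included, was not tested.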
